A study of Mus musculus with 50 samples.

Results

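Genes that encode histones, or proteins that make and process histone mRNA, were followed after depletion of Cdk12 in mouse embryonic stem cells. Members were taken by gene name from the authors' deposited table: names that begin with Hist1h to Hist4h, H2af, H3f3 or H1f, together with Slbp, Lsm10, Lsm11, Npat and Casp8ap2. The rule found 34 genes among 12819. Of these 19 carry Hist names and are called replication-dependent here, 10 are variant histones, and 5 are histone mRNA factors. The replication-dependent class follows the name alone, and one of its members, Hist1h2ad, had no value at 48 h.

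The cells were V6.5 embryonic stem cells (strain C57Bl/6-129). In the knockout clones c.28 and c.36 (genotype Cdk12 -/-:Cdk12 Tg+) both copies of Cdk12 were inactivated and the cells lived on a doxycycline (Dox) inducible, Flag- and HA-tagged Cdk12 transgene, kept on with 1 µg/mL Dox (0 h) or switched off by removing Dox for 24 or 48 h. Each clone was sampled in duplicate, so that 4 libraries of polyA-selected RNA stood behind each time. Clone c.21 (Cdk12 Fl/Fl; Cdk12 Tg-), which has no Dox-driven transgene, received Dox for 17 days and was then harvested at the same times, with 2 libraries each. Each line is 1 clone, and the labels name no promoter for the transgene beyond its Dox response.

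The deposited table sets 0 h against 24 h and against 48 h and gives no values per library, so no replicate spread, sequencing depth or expression level can be set beside a gene. Both comparisons use the same 0 h libraries. Each change is the log2 of a later level over the 0 h level. No header states this direction. It rests on the order of times in the column names and on Cdk12, whose change in the authors' deposited table was -0.61 at 24 h and -0.61 at 48 h, not called at either, and under the opposite reading every rise and fall would be exchanged. A gene was called when the authors' posterior probability of differential expression was at least 0.95. The table also has an adjusted p, called the second statistic here and read at 0.05. Neither its test nor the groups it compares are stated.

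Histones package DNA into nucleosomes, and most of the supply is made in S phase from clustered replication-dependent genes. Their mRNAs normally end in a stem-loop and not in a poly(A) tail: SLBP binds the stem-loop, and the U7 snRNP, which holds Lsm10 and Lsm11, directs the cut together with FLASH, the product of Casp8ap2. Variant histones are made outside S phase as well, mostly from mRNAs with ordinary poly(A) tails. Because the RNA was selected for poly(A), the rows of replication-dependent genes report only transcripts that carried a tail or a run of A, and a selection of this kind largely loses the stem-loop form.

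At 48 h 7 of 18 replication-dependent genes were called as risen, and no gene of the class was called as fallen. Of all genes with a posterior probability 3.72% were called as risen and 3.97% as fallen at that time. The 7 genes were Hist2h3c1, Hist2h2aa1, Hist1h2bc, Hist2h2be, Hist1h1c, Hist3h2ba and Hist3h2a. By the second statistic 5 of the 18 passed as risen, and the shares of all genes that passed it were 1.72% risen and 1.99% fallen. At 24 h none of the 19 was called, against 0.45% of all genes called as risen and 0.679% called as fallen, and none passed the second statistic, which 0.0159% of genes passed as risen and 0.151% as fallen. The class median was 0.05 at 24 h and 0.54 at 48 h by the authors' deposited table, where the median of all genes was 0.01 at both times. Members higher than at 0 h made up 57.9% of the class at 24 h and 77.8% at 48 h, whereas all genes stood at 52.2% and 51.4%. In these bulk samples a change in the number of cells of a type and a change in RNA per cell cannot be told apart.

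**Figure D1:**
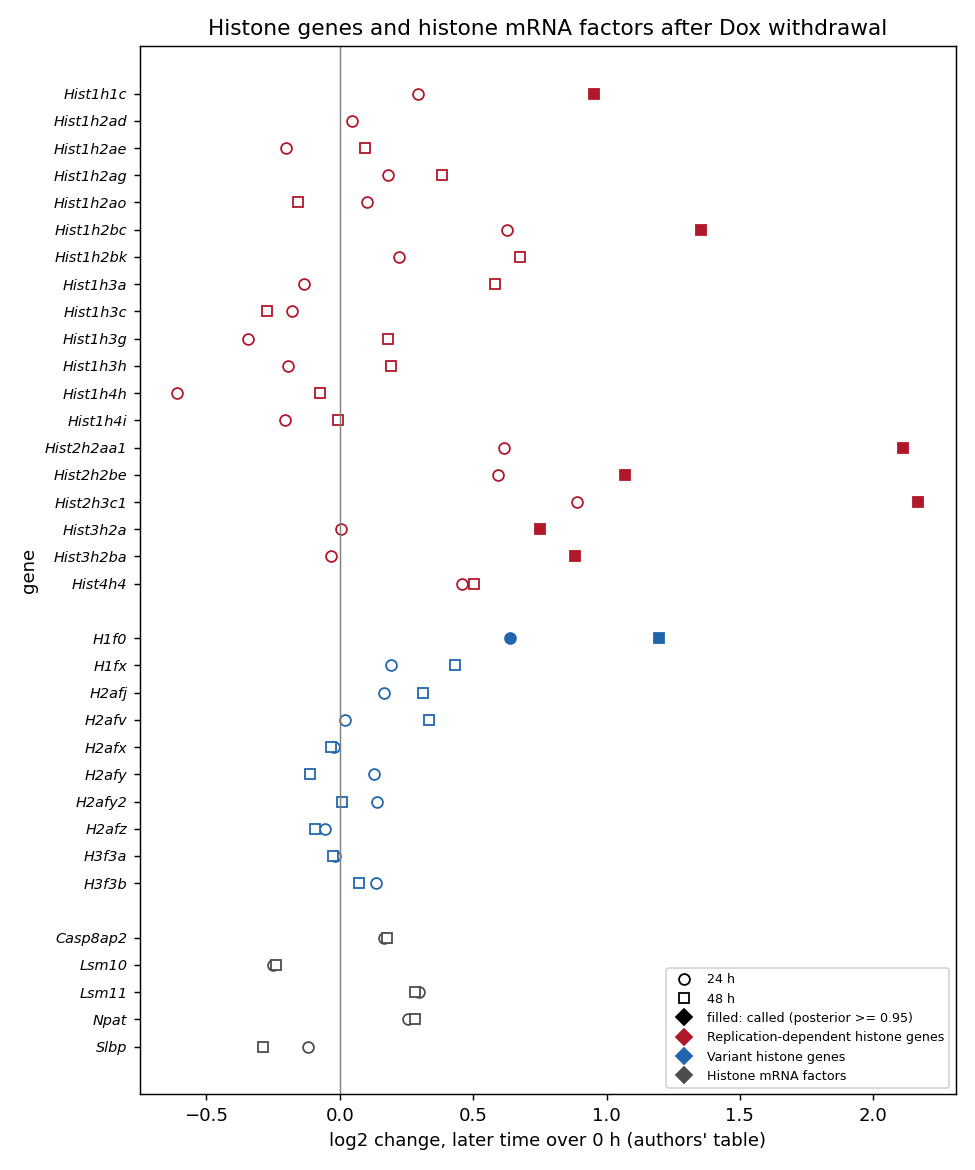
Circles give the log2 change (later time over 0 h, horizontal axis) of the 34 genes at 24 h. Squares give it at 48 h for all but Hist1h2ad, which had no value then. Markers are filled where the posterior probability was at least 0.95, and colours mark the 3 classes. The 7 filled replication-dependent genes and H1f0 lie between 0.75 and 2.17 at 48 h, and H1f0 alone is filled at 24 h.

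The calls among replication-dependent genes followed the name clusters unevenly. All 3 measured Hist2 genes and both Hist3 genes were called as risen at 48 h, as were 2 of 12 Hist1 genes, and the single Hist4 gene was not. At that time 3.72% of all genes were called as risen, so 1 uncalled Hist4 gene does not stand apart from them. Hist1 genes lie on chromosome 13, Hist2 genes on chromosome 3, Hist3 genes on chromosome 11 and Hist4h4 on chromosome 6 (RefSeq, GRCm38.p6). The median change at 48 h was 0.19 for Hist1, 2.11 for Hist2 and 0.81 for Hist3 in the authors' deposited table. Genes of a cluster are neighbours with related sequences and are not independent of each other, and no test of the difference between clusters was made.

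The largest rises of the class were those of Hist2h3c1 and Hist2h2aa1. Hist2h3c1, which encodes a histone H3, stood at 0.89 at 24 h, with a posterior probability of 0.228, and rose by 2.17, or 4.50-fold, at 48 h in the authors' deposited table (adjusted p = 2.37e-05 by the second statistic). Its neighbour Hist2h2aa1, a histone H2A gene, stood at 0.61 at 24 h and rose by 2.11, or 4.32-fold, at 48 h in the authors' deposited table (adjusted p = 7.62e-09). They ranked 3 and 5 by size among the 461 called rises at 48 h. Hist2h2be, a histone H2B gene, stood at 0.59 at 24 h and rose by 1.07, or 2.10-fold, at 48 h in the authors' deposited table (adjusted p = 0.0354). All 3 were already above 0 at 24 h without being called there.

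Both Hist3 genes were near 0 at 24 h. Hist3h2ba, an H2B gene, went from -0.03 at 24 h to a rise of 0.88, or 1.84-fold, at 48 h in the authors' deposited table, with a posterior probability of 0.995. Hist3h2a, an H2A gene, went from 0.00 to a rise of 0.75, or 1.68-fold, with a posterior probability of 1.00 in the authors' deposited table. Neither passed the second statistic, whose adjusted p values in the authors' deposited table were 0.133 for Hist3h2ba and 0.136 for Hist3h2a. Whether 48 h differs from 24 h was not tested, for want of library values.

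In the large Hist1 cluster 2 genes were called. Hist1h2bc, an H2B gene, stood at 0.63 at 24 h and rose by 1.35, or 2.56-fold, at 48 h in the authors' deposited table (posterior probability 0.984, adjusted p = 0.0409). Hist1h1c encodes the linker histone H1.2, which binds DNA between nucleosomes. It stood at 0.29 at 24 h and rose by 0.95, or 1.94-fold, at 48 h in the authors' deposited table (adjusted p = 0.00945).

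The other Hist1 genes lay between -0.27 and 0.68 at 48 h, and none was called. The H2B gene Hist1h2bk stood at 0.22 and then 0.68 in the authors' deposited table, yet its posterior probabilities were 3.63e-30 and 2.83e-24. Hist1h3a, an H3 gene, stood at -0.13 at 24 h and 0.58 at 48 h, with a posterior probability of 0.0916 at 48 h in the authors' deposited table. The H2A gene Hist1h2ag stood at 0.18 and 0.38 as the authors' deposited table gives it. Both of these were above 0 at 48 h without reaching the call.

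Hist1h3g and Hist1h3h, both H3 genes, were below 0 at 24 h and above it at 48 h: Hist1h3g stood at -0.35 and 0.18, and Hist1h3h at -0.19 and 0.19, in the authors' deposited table. The H2A gene Hist1h2ae stood at -0.20 and 0.09 by the authors' deposited table. Genes below 0 at 48 h were 4 in number. They were the H3 gene Hist1h3c at -0.27, the H2A gene Hist1h2ao at -0.16, and the H4 genes Hist1h4h at -0.07 and Hist1h4i at -0.01 in the authors' deposited table. Hist1h4h had been the lowest of the class at 24 h, at -0.61 with a posterior probability of 0.0191 in the authors' deposited table. Hist1h2ad stood at 0.05 at 24 h in the authors' deposited table.

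Hist4h4, the single Hist4 gene, encodes histone H4 and stood at 0.46 and 0.50 by the authors' deposited table, with posterior probabilities of 1.69e-29 and 2.28e-26. It was not called at either time.

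**Figure D2:**
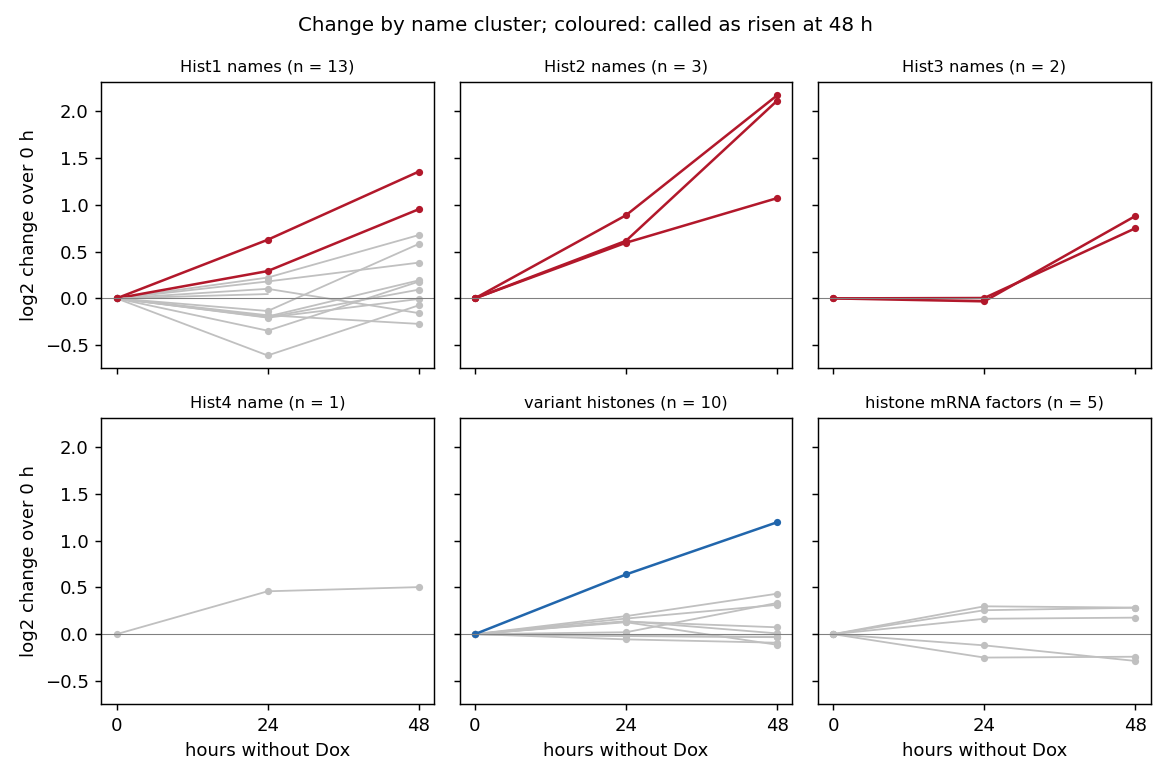
Lines join each gene's log2 change over 0 h (vertical axis) at 0, 24 and 48 h without Dox (horizontal axis), in 6 panels by name cluster or class. Hist1h2ad had no value at 48 h to join. Coloured lines were called as risen at 48 h and grey lines were not. All 3 Hist2 lines and both Hist3 lines are coloured, against 2 of the Hist1 lines.

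Sorted by the protein they encode, H2B genes lay highest and H4 genes lowest among replication-dependent members. Of 4 H2B genes 3 were called as risen at 48 h, with a median of 0.98 in the authors' deposited table. Of 5 H2A genes 2 were called and of 5 H3 genes 1, with medians of 0.38 and 0.19 by the authors' deposited table. None of 3 H4 genes was called, and their median was -0.01 in the authors' deposited table. Of all genes with a posterior probability 3.72% were called as risen at 48 h. The lack of calls among 3 H4 genes therefore does not set them apart from all genes. The single H1 gene with a Hist name was Hist1h1c, described above. With so few genes a type, these are counts of these rows only.

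Of 67 protein-coding genes with Hist names or synonyms in RefSeq (GRCm38.p6), 19 had a row, which were 13 of 54 Hist1, 3 of 10 Hist2, both of 2 Hist3 and the 1 Hist4 gene. Copies within the family are nearly identical in coding sequence, so reads may have been shared or split between copies by the authors' counting, and the change of a single Hist gene is uncertain to that extent. The members Hist1h2bc and Hist2h2be have RefSeq gene spans of 8282 and 2667 bases, and the other 17 spans are at most 725 bases. Both long genes were called. Without them 5 of 16 genes were called as risen at 48 h, against 3.72% of all genes.

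Among the 10 variant histones H1f0 was the only one called. Of all genes 0.45% were called as risen at 24 h and 3.72% at 48 h. H1f0 encodes the replacement linker histone H1.0, which is known to accumulate in differentiating and non-dividing cells. It was the only member called at 24 h, when it rose by 0.64, or 1.56-fold, with a posterior probability of 0.962 in the authors' deposited table. At 48 h it rose by 1.20, or 2.29-fold, with a posterior probability of 0.999 (adjusted p = 0.00409) in the authors' deposited table. The second statistic gave H1f0 an adjusted p of 0.840 at 24 h in the authors' deposited table, which is above 0.05. The 24 h call lay just inside the threshold of 0.95.

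The other 9 variants were not called at either time. The linker histone gene H1fx stood at 0.19 and 0.43 by the authors' deposited table, with a posterior probability of 0.0163 at 48 h. H2afv, which encodes an H2A.Z protein, stood at 0.02 at 24 h and 0.33 at 48 h by the authors' deposited table, and its posterior probability of 0.933 at 48 h fell just short of the call. The H2A.J gene H2afj stood at 0.17 and 0.31 by the authors' deposited table. These were the largest changes among uncalled variants at 48 h.

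The remaining 6 variants lay between -0.11 and 0.07 at 48 h by the authors' deposited table. H2afz, the other H2A.Z gene, stood at -0.06 and -0.09 by the authors' deposited table. H2afx encodes H2A.X, whose phosphorylation marks DNA breaks, and stood at -0.02 and -0.03 by the authors' deposited table. The H3.3 genes H3f3a and H3f3b stood at -0.02 and 0.13 at 24 h, and at -0.03 and 0.07 at 48 h as the authors' deposited table gives them. The macroH2A genes, whose large histones are linked to silent chromatin, were above 0 at 24 h, at 0.13 for H2afy and 0.14 for H2afy2, and at -0.11 and 0.01 at 48 h, by the authors' deposited table. None of these differences was called. The class median was 0.13 at 24 h and 0.04 at 48 h by the authors' deposited table.

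Histone mRNA factors had no called member, where 3.72% of all genes were called as risen and 3.97% as fallen at 48 h. Slbp, which encodes the stem-loop binding protein, stood at -0.12 at 24 h and -0.29 at 48 h by the authors' deposited table, with a posterior probability of 0.0128 at 48 h. The U7 snRNP genes stood on opposite sides of 0. Lsm10 was at -0.25 and -0.24 by the authors' deposited table, and Lsm11 at 0.30 and 0.28. The posterior probability of Lsm11 was 0.714 at 24 h and 0.940 at 48 h by the authors' deposited table, the latter just short of the call. Npat, the coactivator of histone gene transcription that cyclin E/Cdk2 phosphorylates, stood at 0.26 and 0.28 by the authors' deposited table. Casp8ap2 stood at 0.16 and 0.18 as the authors' deposited table gives it. All 5 factors kept their sign between the times, and the class median was 0.16 and then 0.18 in the authors' deposited table.

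**Figure D3:**
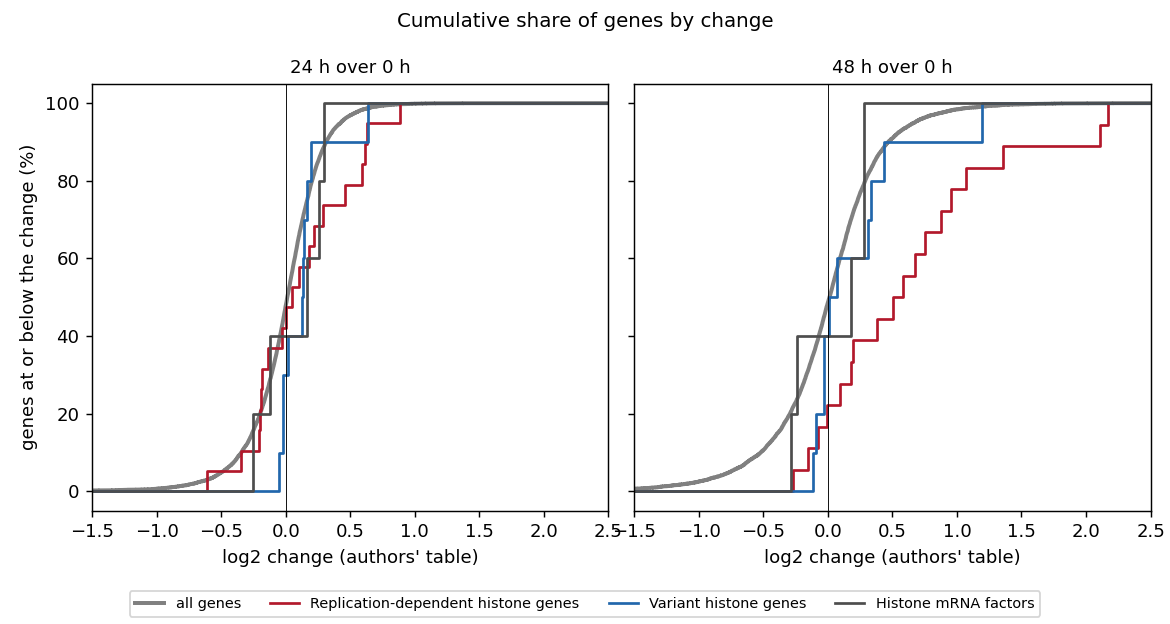
Step curves give the percentage of genes (vertical axis) at or below each log2 change (horizontal axis, drawn from -1.5 to 2.5) at 24 h and 48 h, for all genes (12819 and 12766 with a change), replication-dependent genes (19 and 18), variants (10) and factors (5). At 48 h the replication-dependent curve lies mostly to the right of the curve of all genes, with medians of 0.54 and 0.01.

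Comparing the 3 classes at 48 h, 7 of 18 replication-dependent genes, 1 of 10 variants and none of 5 factors were called as risen. Of all genes with a posterior probability, 3.72% were called as risen at that time. No member of any class was called as fallen at either time, against 0.679% of all genes at 24 h and 3.97% at 48 h. With so few genes, the counts for variants and factors do not set these classes apart from all genes. The members were chosen with earlier results known, so no test over a class or between classes was made, and with 10 and 5 genes the 2 smaller classes allow only coarse shares.

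A further column marks genes for a Dox effect, and what the mark means is not defined. Among members Hist1h1c, Hist2h3c1 and Hist3h2a carried it at 48 h and none at 24 h. Among all 12819 genes 149 were marked at 48 h and 3 at 24 h. The 3 marked members at 48 h were among the 18 replication-dependent genes with a value, and all 3 were among the 7 called as risen. Leaving out marked members, 4 replication-dependent genes were called as risen: Hist2h2aa1, Hist1h2bc, Hist2h2be and Hist3h2ba. With marked genes kept in, 3.72% of all genes were called as risen at 48 h. The part of Dox itself in the 3 marked rises was not tested here. No column is named for the floxed control cells, and whether the mark draws on them is not stated.

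The proximal promoters of called members are shown because the Hist2 pair and the Hist3 pair changed together, and because histone promoters are known for a few short shared elements. RefSeq windows (GRCm38.p6), from 250 bases before to 50 after the annotated start, were matched for 30 of the 34 members. H2afx, Hist1h2bc, Hist1h3a and Hist2h2be were not matched. Letters in capitals are matches, on either strand, to the TATA box TATAAA, the CCAAT box CCAAT, the octamer ATTTGCAT or the GC box GGGCGG, with overlapping matches of one motif counted separately. The labels name mm9 and mm10 without saying which the RNA values used, and the windows are RefSeq's alone. They lie at chr3:96246435-96246734 (plus strand), chr3:96245247-96245546 (plus strand), chr11:58948661-58948960 (plus strand), chr11:58954435-58954734 (plus strand), chr13:23738557-23738856 (plus strand) and chr15:79027962-79028261 (plus strand), in the order printed, each 5′ to 3′ in the direction of its gene.
Hist2h3c1: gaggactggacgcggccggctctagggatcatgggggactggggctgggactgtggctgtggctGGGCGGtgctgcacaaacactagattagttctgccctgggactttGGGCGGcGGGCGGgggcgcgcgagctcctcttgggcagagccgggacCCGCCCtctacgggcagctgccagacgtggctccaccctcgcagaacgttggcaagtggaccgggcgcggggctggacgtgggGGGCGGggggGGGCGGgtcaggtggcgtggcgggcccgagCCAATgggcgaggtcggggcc
Hist2h2aa1: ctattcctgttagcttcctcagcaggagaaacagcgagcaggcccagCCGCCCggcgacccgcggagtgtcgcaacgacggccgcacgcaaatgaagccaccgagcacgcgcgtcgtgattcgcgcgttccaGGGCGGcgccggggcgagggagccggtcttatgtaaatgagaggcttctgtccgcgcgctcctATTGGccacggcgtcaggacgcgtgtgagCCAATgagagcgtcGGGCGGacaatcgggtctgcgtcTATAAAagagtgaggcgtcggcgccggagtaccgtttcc
Hist3h2ba: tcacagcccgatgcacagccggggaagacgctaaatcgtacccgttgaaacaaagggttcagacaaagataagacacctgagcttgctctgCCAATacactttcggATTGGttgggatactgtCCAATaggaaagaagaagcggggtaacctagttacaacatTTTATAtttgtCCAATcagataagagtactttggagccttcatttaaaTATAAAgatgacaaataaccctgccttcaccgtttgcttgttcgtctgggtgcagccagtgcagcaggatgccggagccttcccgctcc
Hist3h2a: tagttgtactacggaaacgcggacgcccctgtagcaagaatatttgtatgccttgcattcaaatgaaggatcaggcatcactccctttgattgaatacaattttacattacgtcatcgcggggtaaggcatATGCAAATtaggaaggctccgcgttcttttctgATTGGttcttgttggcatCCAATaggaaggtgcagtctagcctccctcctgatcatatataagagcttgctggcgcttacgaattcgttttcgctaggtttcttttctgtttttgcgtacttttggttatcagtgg
Hist1h1c: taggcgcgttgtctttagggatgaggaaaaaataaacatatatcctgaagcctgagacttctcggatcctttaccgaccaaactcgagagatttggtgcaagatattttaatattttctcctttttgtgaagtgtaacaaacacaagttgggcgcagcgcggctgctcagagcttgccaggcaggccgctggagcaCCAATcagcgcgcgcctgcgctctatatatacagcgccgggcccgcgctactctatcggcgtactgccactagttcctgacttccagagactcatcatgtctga
H1f0: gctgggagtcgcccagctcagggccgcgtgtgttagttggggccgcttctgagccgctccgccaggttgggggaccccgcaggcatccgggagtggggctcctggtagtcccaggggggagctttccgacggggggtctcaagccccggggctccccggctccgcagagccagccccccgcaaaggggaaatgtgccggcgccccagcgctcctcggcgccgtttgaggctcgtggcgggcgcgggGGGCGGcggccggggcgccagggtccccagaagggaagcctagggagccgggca

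The CCAAT box was in the windows of all 5 matched replication-dependent genes called at 48 h and in 8 of the 11 others. Among all 32851 windows of this length 37.4% held it. It was also in 6 of 9 variant windows and 4 of 5 factor windows, so it was not particular to replication-dependent genes. TATAAA was in 7 of the 16 windows of replication-dependent genes, 2 of 5 called and 5 of 11 others, against 13.6% of all windows. Among variants 1 of 9 windows held it, and among factors 0 of 5. The Hist2h3c1 window held 6 GC boxes and 1 CCAAT box and no TATAAA, while that of Hist2h2aa1 held 3 GC boxes, 2 CCAAT boxes and 1 TATAAA. Hist3h2ba had 4 CCAAT boxes and 2 TATAAA matches, and Hist3h2a had 2 CCAAT boxes and 1 octamer. The octamer, known from H2B promoters, was in 3 windows of replication-dependent genes, those of Hist1h2ae, Hist1h2bk and Hist3h2a, and in 1.74% of all windows. It was in 1 of 9 variant windows and 0 of 5 factor windows. GC boxes were in 8 of the 16 windows and in 35.7% of all windows. They were in 7 of 9 variant windows and 5 of 5 factor windows. H1f0, the called variant, held 1 GC box and none of the other motifs. Each motif was found in windows of both called and uncalled replication-dependent genes, and a match is a run of letters only.

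The measured genes next to the called members were examined as a description, a choice made after the values were seen. Those next to the uncalled pair Hist4h4 and H2afj were taken as well and are part of the count. The nearest 2 measured genes on each side of 5 loci gave 20 neighbours, of which 2 were called as risen at 48 h and none as fallen, against 3.72% and 3.97% of all genes. Around the Hist2 genes Bola1 and Sv2a on one side stood at 0.10 and -0.18 at 48 h by the authors' deposited table, and Hfe2 on the other at -0.30. The next measured gene there, Txnip, a thioredoxin inhibitor, rose by 0.77 in the authors' deposited table (adjusted p = 0.0333). Beside the Hist3 genes Trim11, a ubiquitin ligase gene, rose by 0.55 at 24 h and by 0.72 at 48 h in the authors' deposited table, with posterior probabilities of 0.999 and 1.00. Its adjusted p of 0.0730 at 48 h missed the threshold of the second statistic. On their other side Rnf187 stood at 0.32 and was not called, as the authors' deposited table gives it. The genes next to H1f0, Triobp and Gcat, were not called, at 0.31 and -0.15 by the authors' deposited table. Hist4h4 and the variant gene H2afj are themselves neighbours, at 0.50 and 0.31 at 48 h by the authors' deposited table.

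**Figure D4:**
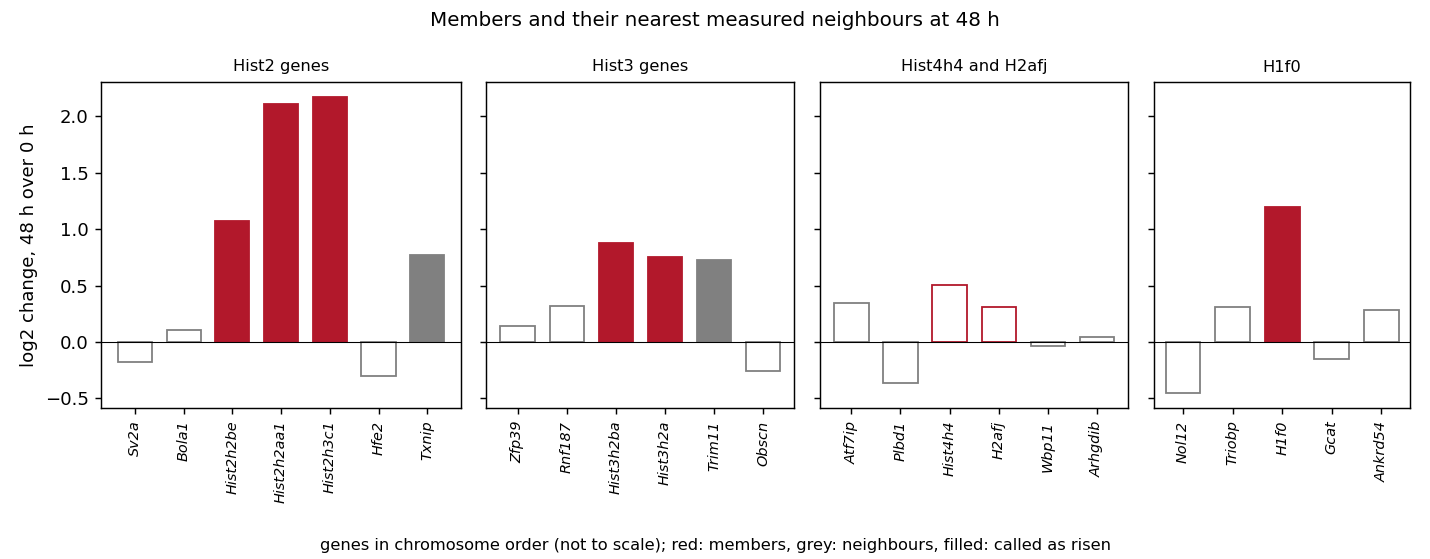
Bars give the log2 change at 48 h over 0 h (vertical axis, from 0) of members (red) and their nearest measured neighbours (grey) in chromosome order, not to scale, at 4 loci; filled bars were called as risen. The 3 Hist2 bars reach 1.07 to 2.17 beside uncalled neighbours Bola1 and Hfe2, and the neighbours Txnip and Trim11 are filled as well.

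Other genes of histone supply were counted by list, beside the 3.72% of all genes called as risen and 3.97% called as fallen at 48 h. Of 11 measured factors of histone mRNA cleavage and cap binding none was called at 48 h, nor any of the 10 with a posterior probability at 24 h, and their median at 48 h was -0.09 in the authors' deposited table. Zfp473, a zinc finger protein of the U7 complex, stood highest at 0.56 at 48 h in the authors' deposited table, followed by the cap-binding partner gene Srrt at 0.27. At 24 h Zfp473 stood at 0.37 in the authors' deposited table with no posterior probability, and Srrt at 0.31. The 5 Sm proteins shared with the U7 snRNP had no called member, with Snrpe at -0.31 and Snrpf at 0.25 at 48 h in the authors' deposited table. Snrpe and Snrpb lay farthest from 0 at 24 h, at -0.28 and -0.07 by the authors' deposited table. None of 14 histone mRNA decay factors was called, and the uridylyl transferase gene Zcchc11 and the exonuclease gene Xrn1 stood at 0.65 and 0.52 at 48 h by the authors' deposited table. At 24 h Lsm5, of the Lsm ring that binds mRNAs for decay, stood at -0.26 and Xrn1 at 0.24 in the authors' deposited table.

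Among 12 measured genes for histone gene transcription, 11 of them with a posterior probability at 48 h, 1 was called, the S phase transcription factor gene E2f2, which fell by 0.63 at 48 h in the authors' deposited table (adjusted p = 0.123 by the second statistic). Cyclin E2, Ccne2, stood at -0.55 and -0.40 and the octamer-binding factor gene Pou2f1 at 0.45 and 0.30 by the authors' deposited table, neither of them called. Of 27 histone chaperone genes, 26 with a posterior probability at 48 h, 1 was called, Ubn1 of the H3.3 chaperone complex HIRA, which rose by 0.53 in the authors' deposited table (adjusted p = 0.283). The subunit gene Chaf1b of CAF-1, which deposits new histones behind the replication fork, stood at -0.39 and -0.66 by the authors' deposited table and was not called. Atrx, a chromatin remodeller that works with the H3.3 chaperone Daxx, stood at 0.49 and 0.57 by the authors' deposited table and was not called. With so few genes a list, these counts do not set the lists apart from all genes. Cenpa, the centromeric H3 variant that the naming rule does not take, stood at -0.03 and 0.20 by the authors' deposited table and was not called.

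Cell cycle genes were looked at beside the histone genes. Of 30 S phase genes, a list that holds Slbp, 20 were below 0 at 24 h and 24 at 48 h, with medians of -0.09 and -0.22 by the authors' deposited table. Cdc45, a subunit of the replicative helicase, stood at -0.44 and -0.92 by the authors' deposited table and was not called. Of 30 genes of G2 and M phase 27 were above 0 at both times, with medians of 0.17 and 0.23 by the authors' deposited table. Of all genes 52.2% were above 0 at 24 h and 51.4% at 48 h. No gene of the G2 and M phase list was called, with 28 of the 30 having a posterior probability at 48 h. At that time 3.72% of all genes were called as risen and 3.97% as fallen. With so few genes, the lack of calls does not set the list apart from all genes. Mki67 and Ckap2 stood highest in the list at 48 h, at 0.64 and 0.72 by the authors' deposited table. At 24 h Mki67 and Cenpe stood highest, at 0.51 and 0.48. The part of a shift in cell cycle phase in the histone changes was not tested.

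Cell identity markers were looked at the same way. All 20 pluripotency markers had a row, 10 of them above and 10 below 0 at 48 h. None of the 19 with a posterior probability was called then, against 3.72% of all genes called as risen and 3.97% called as fallen. Zfp42 and Klf2 lay farthest from 0 among these markers at 48 h, at -0.46 and 0.43 by the authors' deposited table. At 24 h Klf2 rose by 0.60 in the authors' deposited table (adjusted p = 1 by the second statistic). Endoderm markers had 2 of 11 called as risen at 48 h, against 3.72% of all genes, and a median of 0.52 in the authors' deposited table, with members from -0.34 to 1.36. They were Gata4, which rose by 0.85, and Gata6, which rose by 0.79 and did not pass the second statistic (adjusted p = 0.102 in the authors' deposited table). Trophoblast markers had a median of 0.71 over 10 genes, from -1.78 to 1.49, with Tfap2c called as risen and Ascl2 as fallen in the authors' deposited table. At 24 h Ascl2 fell by 2.34 in the authors' deposited table. Sox7 of the endoderm list rose by 0.55 at 24 h without passing the second statistic (adjusted p = 1), and stood at 0.28 at 48 h with a posterior probability of 3.27e-22 in the authors' deposited table. Neural, mesoderm and fibroblast markers had 5, 4 and 5 rows, with medians of -0.22, 0.04 and -0.09 at 48 h by the authors' deposited table. Neurod1 rose by 2.53 and Col1a1 by 0.89 at 48 h in the authors' deposited table, both with the Dox mark, and Col1a1 did not pass the second statistic (adjusted p = 0.0517). No mesoderm marker was called, with Kdr at -1.48 and Mixl1 at 0.65 at 48 h in the authors' deposited table. The uncalled genes farthest from 0 at 24 h in these 3 lists were Neurod1 at 1.37, Sox1 at -0.32, Kdr at -0.55, Nkx2-5 at 0.20, Thy1 at 0.31 and Vim at 0.24 in the authors' deposited table. At 48 h the shares of all genes were 3.72% called as risen and 3.97% called as fallen. With so few genes a list, the calls at 48 h do not set the trophoblast, neural, mesoderm and fibroblast lists apart from all genes. The table gives no levels, so which markers were near 0 cannot be read from it. The part of cells of these types in the histone changes was not tested.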

How the data were processed

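The series holds 18 libraries of polyA-selected RNA, 12 of them from the knockout clones. Whether the floxed libraries entered any column of the table is not stated. The 32 chromatin libraries are not analysed here. For each time the authors deposited a posterior probability (0 to 1) that a gene differs, a log2 fold change, an adjusted p-value and a Dox mark, per the file headers. The submitters' processing notes name STAR, RSEM and DESeq and the builds mm9 and mm10, but do not tie any of them to a column. The title of the deposited table names EBSeq, without saying which columns came from it. Depth is unknown. Changes were multiplied by -1 to read the later time over 0 h.

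No model was fitted across all genes here. Calls at a posterior probability of at least 0.95 were counted by direction with Python 3.11.15 and pandas 2.3.3, and a gene without one could not be called; background shares leave such genes out, whereas list sizes include them. Counting was tested on simulated data. Rows were matched to RefSeq by symbol or unique synonym (12707 of 12819). Every member is named; from other lists up to 4 called genes, or 2 uncalled ones with the largest change, are named; 1 gene of the S phase list is not reported here. Members and lists were chosen with earlier results of these data known, and neighbours and motifs after members' values were seen. Alternatives were a posterior probability of at least 0.99, changes of at least 1.5-fold and 2-fold, the second statistic, removal of marked genes, removal of genes without a posterior probability and centring on all genes; removal of genes spanning over 1000 bases was added later.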

Additional observations from a re-analysis of the deposited data

How the results depend on the processing

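The 7 called replication-dependent genes at 48 h became 4 when a change of at least 2-fold was required and 4 when genes with the Dox mark were left out. Under a posterior probability of at least 0.99, a change of at least 1.5-fold, the second statistic or removal of genes spanning over 1000 bases the count was 6, 7, 5 and 5. The median of the class at 48 h moved from 0.54 to 0.38 without marked genes. The marked genes Hist1h1c, Hist2h3c1 and Hist3h2a all lay above that median, at 0.95, 2.17 and 0.75, so leaving them out lowers it. The 1 called variant at 24 h, H1f0, became 0 at a posterior probability of at least 0.99, at 2-fold and by the second statistic. At 48 h the variant count was 1 and the factor count 0 in every alternative run. No other class median moved by 0.1 or more. Removal of the long genes came to the edge of that limit, with the replication-dependent median at 48 h going from 0.5422 to 0.4423. Among single members, Hist1h2bc at 48 h was no longer called at 0.99, and Hist3h2a and Hist3h2ba at 48 h did not pass the second statistic. No replicate could be left out, and no paired analysis was possible because the table holds no column per library.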

Other observations

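Some genes had very small posterior probabilities. Hist1h2bk and Hist4h4 were the 2 members with a posterior probability under 1e-10, at both times, among 367 such rows at 24 h and 415 at 48 h. The median absolute log2 change of those rows was 0.23 at 24 h and 0.32 at 48 h by the authors' deposited table. Of those rows 130 had a change of at least 0.5 on the log2 scale in either direction at 48 h, and the largest was 1.89 in the authors' deposited table. Every gene called at 48 h had changed by at least 1.43-fold in the authors' deposited table, and Hist1h2bk had a 1.60-fold change there without being called.

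H1f0 was 1 of 40 genes called as risen at both times. Its linker relative Hist1h1c was called at 48 h, and H1fx, the other measured linker histone gene, stood at 0.43 at 48 h in the authors' deposited table and was not called.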
